A study of Mus musculus with 9 samples.

Results

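The circadian clock genes described here were 10 mouse genes listed by symbol, namely Arntl, Dbp, Nr1d1, Nr1d2, Per1, Per2, Per3, Cry1, Cry2 and Ciart. All 10 were found among the 37816 genes of the deposited counts, and all 10 were among the 19353 genes with enough counts to be tested. They were examined in the cerebellum of 9 mice because their RNA levels follow the time of day, and the hour of tissue collection is not given in the sources used here.

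The RNA came from transgenic mice on a C57BL/6 background, a model of spinocerebellar ataxia type 3 (SCA3), and each group had 3 mice of 18 months of age. All 9 mice carried a yeast artificial chromosome (YAC) with the human ATXN3 gene, so that the control group was also transgenic and no mouse without a transgene was included. The 15Q group (control) had a tract of 15 CAG repeats and the 84Q group (sham) a pathological tract of 84 repeats. The 84Q+IGF-1 group carried the 84-repeat allele and was given insulin-like growth factor 1 at 50 mg/kg into the peritoneum once a week from 9 to 18 months. By the study's methods the 15Q and 84Q mice were given PBS on the same schedule, whereas the sample labels call them untreated. The 15Q and 84Q animals are 2 separately obtained lines, and the insertion site and copy number of the transgenes were not analysed here. The human transgene itself was not analysed here either.

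The mammalian clock is a feedback loop of transcription that runs in most cells, the neurons and glia of the cerebellum included. The protein of Arntl (also called BMAL1) pairs with CLOCK or NPAS2, binds E-box sequences and drives the genes of its own repressors, the period (Per) and cryptochrome (Cry) proteins, together with the REV-ERB receptors (Nr1d1, Nr1d2), Dbp and Ciart. REV-ERB proteins repress Arntl and ROR receptors activate it, and over the day Arntl RNA therefore peaks opposite to Nr1d1 and Dbp RNA.

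The libraries held from 17482654 to 58269196 counts on genes, and each clock gene had between 310 and 11130 counts in each library. Mice of the same group differed beyond counting noise, with a chi-square per gene from 9.82 to 16.1 where noise alone gives 1. Levels are given in CPM, counts scaled to a common library total that was itself corrected by the TMM method. The 5 markers each of granule cells, Purkinje cells, oligodendrocytes, astrocytes with Bergmann glia, microglia and endothelium were above 3 counts in every library, as the tissue label requires. Xist, which is transcribed from the inactive X chromosome of females, was abundant in 4 libraries (2 of the 15Q group, its replicates 2 and 3, and 1 each of the others, 84Q replicate 1 and replicate 2 of 84Q+IGF-1), so that the sexes were unevenly spread over the groups. The choroid plexus gene Ttr stood at 354, 340 and 832 CPM in 15Q replicates 1 and 3 and 84Q replicate 2, and between 0.855 and 19.8 CPM in the other 6 libraries. Summed markers of intestine, liver, epidermis and skeletal muscle were higher in each 15Q library than in each of the others. The intestine list (6 genes) ran from 16.1 to 24.4 CPM in 15Q, 4.24 to 6.07 in 84Q and 4.70 to 5.61 in 84Q+IGF-1, and the liver list (5 genes) from 12.9 to 24.6, 3.21 to 4.22 and 2.74 to 3.56 CPM. The epidermis list (5 genes) ran from 14.0 to 24.0 CPM in 15Q and from 5.32 to 6.90 CPM in the other 6 libraries. The skeletal muscle list (5 genes) ran from 10.7 to 16.6 and from 0.967 to 2.42 CPM. Muc13, Cdx1, Fabp2 and Krt20 of the first list, Alb, Apoa1 and Serpina1c of the second, Krt14, Krt5 and Dsg1a of the third and Myh4, Ckm, Mylpf and Tnnt3 of the fourth had 3 or fewer counts in at least 1 library. A blood list (4 genes) overlapped between groups, at 42.7, 188 and 28.7 CPM in 15Q, 20.5 to 71.8 in 84Q and 25.3 to 51.9 in 84Q+IGF-1. The part of sex, choroid plexus and these genes in the values below was not tested beyond the alternatives named with each result. In bulk RNA, fewer cells of a type and less RNA per cell cannot be told apart.

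Promoter sequences of the clock genes are shown first. Of the 10 genes, 9 had an entry in the RefSeq promoter table of GRCm38.p6 (250 bases before to 50 after each start site), with 11 windows in all, and Per2 had none. Both strands were searched for the E-box CACGTG, to which the Arntl protein binds with its partners, for the D-box TTATGTAA or TTACGTAA, to which the DBP protein and its relatives bind, for the core AGGTCA of the element shared by ROR and REV-ERB proteins, and for the cAMP response element TGACGTCA. An E-box was present in 3 of the 11 windows (that of Cry1, that of Ciart and 1 of the 2 of Per1), against 7.15% of the 32851 windows of all genes. A D-box was present in 1 of 11, that of Per3, against 1.06% of all windows. The ROR core was present in 3 of 11 (that of Nr1d2 and 1 of the 2 each of Arntl and Per1), against 16.3%, and the cAMP response element in 0 of 11, against 1.79%. The windows of Dbp, Nr1d1 and Cry2 held none of the 4 motifs. The stretches below run 5′ to 3′ on the strand of the gene and end before the RefSeq start site. Capitals mark the motif.

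The E-box stretch of Ciart, at chr3:95882242-95882369 on the minus strand of GRCm38.p6, holds 3 copies that begin 116, 58 and 44 bases before the start site, and its end overlaps the first bases of the GENCODE gene. That of Cry1 lies at chr10:85185084-85185139 (minus strand), with the motif 60 bases before the start. That of Per1 lies at chr11:69098758-69098813 (plus strand), with the motif 166 bases before a RefSeq start site that is inside the span of the GENCODE gene. They are shown because the E-box is the element through which the Arntl protein acts on genes of the loop.
Ciart E-boxes: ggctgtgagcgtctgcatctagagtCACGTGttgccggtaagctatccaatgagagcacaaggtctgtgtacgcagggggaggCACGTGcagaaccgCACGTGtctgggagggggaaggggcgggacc
Cry1 E-box: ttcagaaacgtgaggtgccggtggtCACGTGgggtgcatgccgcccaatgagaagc
Per1 E-box: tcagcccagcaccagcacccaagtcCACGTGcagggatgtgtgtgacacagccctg

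The D-box stretch of Per3, at chr4:151044791-151044895 (minus strand), holds 2 identical copies 205 and 158 bases before the start. It is shown because no other window of these genes held a D-box. The ROR core of Nr1d2, at chr14:18239153-18239208 (minus strand), begins 77 bases before the start. It is shown as a match to the core of the element that ROR and REV-ERB proteins share, and only the letters of the core were searched for. A match is a description of the letters only.
Per3 D-boxes: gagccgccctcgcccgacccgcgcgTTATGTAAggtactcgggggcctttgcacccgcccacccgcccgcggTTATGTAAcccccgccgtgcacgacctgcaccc
Nr1d2 ROR core: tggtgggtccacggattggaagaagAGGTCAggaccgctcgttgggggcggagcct

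None of the 10 clock genes was called differentially expressed in any comparison. The thresholds for a call were an adjusted p of 0.1 and a change of 1.5 times, in the quasi-likelihood test of edgeR with p-values adjusted by Benjamini and Hochberg over the 19353 genes tested. The highest of the 9 libraries stood between 1.15 times (Cry2) and 1.92 times (Per2) above the lowest. For levels compared between genes, counts were also divided by exon length to give TPM, which is scaled by length as well as by depth. On that scale Nr1d1 was the most abundant, with a mean of 204 TPM over the 9 libraries and a range of 179 to 236 TPM. It was followed by Nr1d2 with a mean of 133 TPM (112 to 153 TPM) and Cry2 with 99.3 TPM (92.1 to 105 TPM), and the ranges of these 3 genes did not overlap. Per1 (mean 87.2 TPM, 64.7 to 119 TPM), Per2 (65.5 TPM, 49.6 to 98.1 TPM), Dbp (59.5 TPM, 46.2 to 66.8 TPM) and Cry1 (53.2 TPM, 46.1 to 67.0 TPM) followed, and neighbours from Cry2 down to Cry1 in this order overlapped. Per3 (37.5 TPM, 28.4 to 42.5 TPM), Ciart (32.1 TPM, 22.9 to 40.5 TPM) and Arntl (26.6 TPM, 22.9 to 30.9 TPM) lay lowest. Per3 did not overlap Cry1 above it, while Per3, Ciart and Arntl overlapped with their neighbours.

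**Figure D1:**
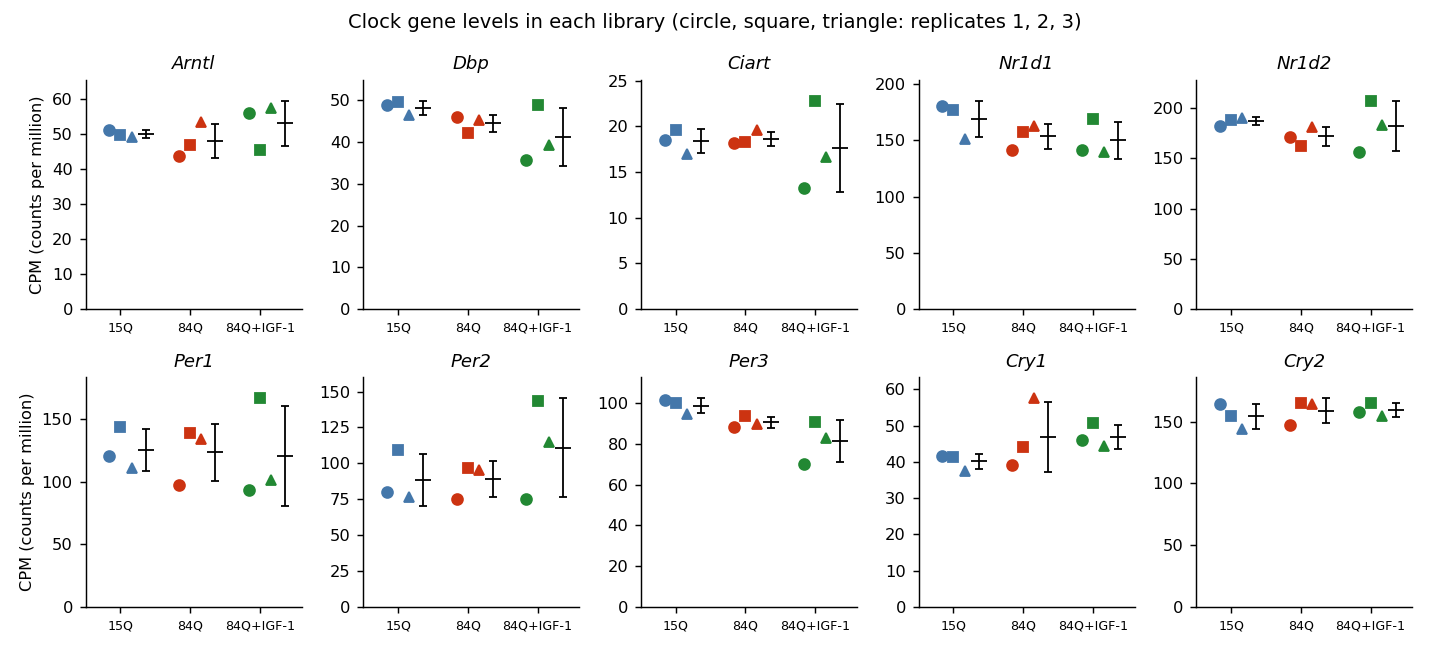
Levels of the 10 clock genes in CPM (linear axes from 0) in the 3 mice of each group, with circles, squares and triangles for replicates 1, 2 and 3 and bars for the group mean and SD. The groups overlap for most genes, and 84Q+IGF-1 replicate 2 lies above replicate 1 of its group for each gene but Arntl.

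Arntl, the activator of the loop (ENSMUSG00000055116.8, chromosome 7, 113207465 to 113314126, plus strand), stood at 51.1, 49.5 and 49.0 CPM in the 15Q mice. The 84Q mice had 43.7, 46.7 and 53.3 CPM, and the 84Q+IGF-1 mice 55.9, 45.4 and 57.3 CPM. The 15Q mice lay close together, inside the wider ranges of both other groups. In 84Q against 15Q its log2 fold change was −0.060 (95% interval −0.26 to 0.14), in 84Q+IGF-1 against 15Q 0.086 (−0.12 to 0.29) and in 84Q+IGF-1 against 84Q 0.15 (−0.059 to 0.35).

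Dbp encodes a PAR bZIP transcription factor and is a direct output of the loop (ENSMUSG00000059824.12, chromosome 7, 45705088 to 45710203, plus strand). It stood at 48.8, 49.6 and 46.4 CPM in 15Q and at 46.1, 42.1 and 45.3 CPM in 84Q, so that each 84Q mouse lay just below each 15Q mouse. The 84Q+IGF-1 mice had 35.6, 48.8 and 39.2 CPM, of which replicate 2 lay within the range of the 15Q mice and the other two below all 6 mice without IGF-1. The log2 fold change in 84Q+IGF-1 against 15Q was −0.23 (95% interval −0.44 to −0.012, unadjusted p = 0.0401 and adjusted p = 0.254 in edgeR), a difference that did not pass after adjustment. With 1 library left out at a time it ran from −0.36 without 84Q+IGF-1 replicate 2 (edgeR adjusted p = 0.0465) to −0.13 without replicate 1 of that group (0.593), and adjusted p over all its alternatives from 0.0465 to 0.754.

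Ciart, a repressor of the loop (ENSMUSG00000038550.10, chromosome 3, 95878503 to 95882251, minus strand), was among the least abundant of these genes. It had 18.5, 19.6 and 17.0 CPM in 15Q, 18.2, 18.2 and 19.6 CPM in 84Q and 13.3, 22.8 and 16.7 CPM in 84Q+IGF-1. The lowest and the highest of the 9 values were thus both in the 84Q+IGF-1 group. Its log2 fold changes were 0.023 in 84Q against 15Q, −0.058 in 84Q+IGF-1 against 15Q and −0.081 in 84Q+IGF-1 against 84Q, with standard errors of 0.15 to 0.16.

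The REV-ERB receptors are the repressors of Arntl. Nr1d1 (ENSMUSG00000020889.11, chromosome 11, 98767932 to 98775333, minus strand) stood at 180.1, 177 and 151 CPM in 15Q, 141, 157 and 163 CPM in 84Q and 142, 169 and 139.7 CPM in 84Q+IGF-1. Its mean was 169 ± 16.04 CPM (SD, n = 3) in 15Q, against 154 ± 11.2 in 84Q and 150.0 ± 16.3 in 84Q+IGF-1, and the groups overlapped. Nr1d2 (ENSMUSG00000021775.11, chromosome 14, 18204054 to 18239127, minus strand) stood at 182, 188 and 190.4 CPM in 15Q and 171, 162 and 181 CPM in 84Q, which did not overlap. The 84Q+IGF-1 mice had 156, 207 and 183 CPM and spanned both ranges. Adjusted p in 84Q against 15Q was 0.424 for Nr1d1 and 0.466 for Nr1d2 (quasi-likelihood test of edgeR, adjusted by Benjamini and Hochberg).

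The 3 period genes encode the repressors that join the cryptochromes. Per1, which also answers to neuronal activity and glucocorticoids (ENSMUSG00000020893.17, chromosome 11, 69095217 to 69109960, plus strand), had 121, 144 and 111 CPM in 15Q. It had 97.4, 139 and 134 CPM in 84Q and 93.7, 167 and 102 CPM in 84Q+IGF-1, and the 3 groups overlapped throughout. Per2 (ENSMUSG00000055866.9, chromosome 1, 91415982 to 91459324, minus strand) had 79.9, 109 and 76.4 CPM in 15Q, 74.9, 97.0 and 95.7 CPM in 84Q and 74.8, 143 and 115 CPM in 84Q+IGF-1. The 84Q+IGF-1 group held both the lowest and the highest value of the 9. The log2 fold change of Per2 in 84Q+IGF-1 against 15Q was 0.33 (95% interval −0.11 to 0.77), an interval that reaches from 0.926-fold to 1.70-fold. The estimate moved with single libraries. It was 0.10 without 84Q+IGF-1 replicate 2, 0.55 without replicate 1 of that group and 0.51 without 15Q replicate 2, with adjusted p of 0.818, 0.171 and 0.333 in edgeR. Without the 3 libraries with the most Ttr, which leaves 1 mouse in 15Q whose spread is taken from the other groups, it was 0.032. The lowest adjusted p over the alternatives, 1.2e-04 in edgeR, came from the fit without a filter on low counts, which hardly uses the gene's own spread.

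Per3 (ENSMUSG00000028957.12, chromosome 4, 151003652 to 151044665, minus strand) came closest to the threshold of the test. The 15Q mice had 102, 100.1 and 94.4 CPM, the 84Q mice 88.3, 93.8 and 89.6 CPM and the 84Q+IGF-1 mice 70.3, 90.8 and 83.1 CPM. Each of the 6 mice with the 84-repeat allele lay below each of the 3 mice with 15 repeats. In 84Q+IGF-1 against 15Q its log2 fold change was −0.28 (standard error 0.078, 95% interval −0.45 to −0.11, unadjusted p = 0.00431 and Benjamini-Hochberg adjusted p = 0.107 in edgeR). In all 84Q carriers against 15Q it was −0.20 (standard error 0.067, edgeR adjusted p = 0.111), and both values lay under the fold change of 1.5. The direction held in all 16 and all 15 alternatives of these 2 comparisons. In the former the edgeR adjusted p was 0.00243 without a filter on low counts, a fit that hardly uses the gene's own spread. With 1 library left out it ran from 0.0478 without 84Q+IGF-1 replicate 2 to 0.267 without 15Q replicate 2. In the latter adjusted p ranged from 0.0133 to 0.592 over the alternatives.

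Among the cryptochromes, Cry1 (ENSMUSG00000020038.10, chromosome 10, 85131700 to 85185064, minus strand) had 41.5, 41.2 and 37.6 CPM in 15Q, 39.1, 44.1 and 57.6 CPM in 84Q and 45.9, 50.7 and 44.3 CPM in 84Q+IGF-1. Each 84Q+IGF-1 mouse lay above each 15Q mouse, while 84Q replicate 1 fell among the 15Q mice. The log2 fold change was 0.22 in 84Q against 15Q and 0.23 in 84Q+IGF-1 against 15Q, with standard errors of 0.12 and adjusted p of 0.328 and 0.336 in edgeR. The former was 0.054 without 84Q replicate 3 and 0.34 without 84Q replicate 1 (edgeR adjusted p = 0.839 and 0.118). Over the alternatives its edgeR adjusted p ran from 0.0952, without a filter on low counts, to 0.839. Cry2 (ENSMUSG00000068742.11, chromosome 2, 92403646 to 92434043, minus strand) was the steadiest, with 165, 154 and 144 CPM in 15Q, 148, 166 and 164 CPM in 84Q and 158, 165 and 154 CPM in 84Q+IGF-1. Its log2 fold changes lay between 0.0028 and 0.046 in the 3 comparisons of groups, with standard errors of 0.065.

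The members were then counted against all genes tested, to show how far the groups differed in clock gene expression. In 84Q against 15Q, 0 of 10 clock genes were called, where 2.14% of all tested genes were called. For the 84Q+IGF-1 group the count was 0 of 10 against a background of 2.25% in the comparison with 15Q, and 0 of 10 against 0.0% in that with 84Q. For all 84Q carriers and 15Q it was 0 of 10 against 3.51%. With so few calls among all genes, a count of 0 in 10 is near the background and is no result about these genes. At an unadjusted p under 0.05 in edgeR the counts were 0, 2 (Dbp and Per3), 0 and 2 (Cry1 and Per3) of 10, against 19.4%, 17.7%, 4.68% and 22.6% of all genes. DESeq2 also called 0 of 10 in each of the 4 comparisons, against 2.18%, 2.46%, 0.0159% and 3.1% of the genes to which it gave an adjusted p, in the same order. The groups did not overlap for 3 of 10 in 84Q against 15Q (Dbp, Nr1d2 and Per3, all lower in 84Q), where 25.4% of all genes did not overlap and 13.5% lay lower without overlap. In 84Q+IGF-1 against 15Q the groups did not overlap for Cry1, which was higher, and Per3, which was lower, against 24.7% of all genes (11.7% higher and 13.0% lower). No clock gene was free of overlap in 84Q+IGF-1 against 84Q (background 8.46%), and 1 was in all 84Q carriers against 15Q (Per3, background 12.3%, of which 6.37% lower).

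The intervals give the size of change that the data allow, with the spread of each gene taken as equal in the groups. The 95% interval of the fold change lay wholly within 1.5-fold in either direction for all 10 genes in 84Q against 15Q and in all 84Q carriers against 15Q. It did so for 9 of 10 in each of the 2 other comparisons, with Per2 as the exception in both. The SD of log2 CPM was largest in 84Q+IGF-1 for 8 of the 10, such as Per1 (0.45, against 0.19 in 15Q). For these genes the intervals in comparisons of that group may be too narrow. The median log2 fold change of the 10 was −0.042 in 84Q against 15Q (all genes −0.0019), −0.046 in 84Q+IGF-1 against 15Q (all genes −0.0051) and −0.014 in 84Q+IGF-1 against 84Q (all genes −0.0033). The median size of the change without its sign was 0.089, 0.13 and 0.083 on the log2 scale, and 0.14, 0.13 and 0.088 over all genes tested. The comparisons with 15Q share the same 3 control mice.

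**Figure D2:**
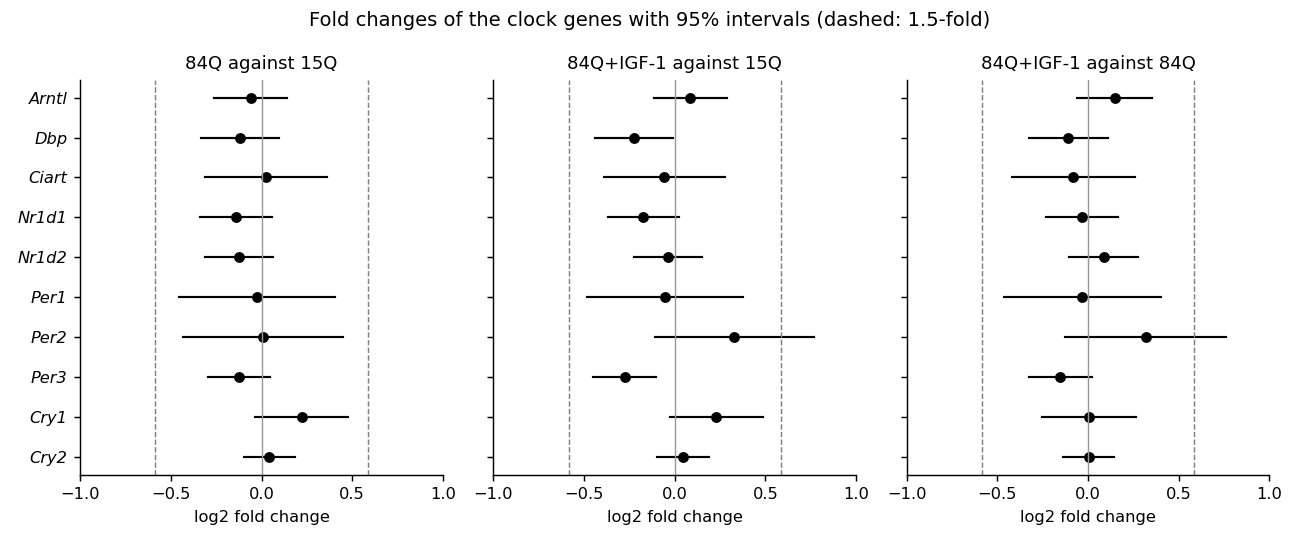
Log2 fold changes of the 10 clock genes (points) with 95% intervals (lines) in the 3 comparisons of groups, with dashed lines at 1.5-fold. Per2 in both comparisons of the 84Q+IGF-1 group is the gene whose interval crosses the dashed line.

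Since Arntl and Dbp RNA peak at opposite times of day, their levels were also set against each other in each mouse, as the log2 ratio of Dbp to Arntl (from log2 CPM). The ratio was −0.067, 0.0029 and −0.078 in the 15Q mice, and 0.077, −0.15 and −0.24 in the 84Q mice. In the 84Q+IGF-1 mice it was −0.65, 0.10 and −0.55. Of the 9 mice, 84Q+IGF-1 replicates 1 and 3 stood apart at the low end, while replicate 2 of the same group had the highest ratio. The group means were −0.047 ± 0.044 in 15Q and −0.10 ± 0.16 in 84Q, with −0.36 ± 0.41 for 84Q+IGF-1 (SD, n = 3). In linear terms Dbp stood at 0.637 times the CPM of Arntl in 84Q+IGF-1 replicate 1 and 1.08 times in replicate 2. The part of harvest hour, sex, glucocorticoids and tissue make-up in this ratio was not tested.

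The mice of the 84Q+IGF-1 group lay farther apart than those of the other groups for 8 of the 10 genes, the exceptions being the cryptochromes. Replicate 1 had the lowest of the 9 values for 6 genes (Dbp, Nr1d2, Per1, Per2, Per3 and Ciart), and replicate 2 the highest for 4 (Nr1d2, Per1, Per2 and Ciart). Replicate 2 exceeded replicate 1 by 1.92 times in Per2, 1.78 times in Per1, 1.72 times in Ciart and 1.37 times in Dbp, while Arntl stood at 0.812 times. The SD of log2 CPM was largest in this group for those 8, where 37.7% of all tested genes had it there. Cry2 had its smallest SD in this group (0.050, against 0.097 in 15Q and 0.093 in 84Q), and Cry1 had 0.10 against 0.29 in 84Q. The median SD of the 10 was 0.088 in 15Q and 0.0998 in 84Q, and it was 0.20 in 84Q+IGF-1, against 0.11, 0.14 and 0.14 over all tested genes. Replicate 2 was also the library of this group with high Xist, and it had 12.9 CPM of Fkbp5, a target of the glucocorticoid receptor, against 6.18 CPM in replicate 1 and 8.98 CPM in replicate 3. Replicate 1 had the lowest sum of the 5 oligodendrocyte markers of all 9 libraries, 2773 CPM against 3480 to 4658 CPM, and the highest sum of the 5 granule cell markers, 4544 CPM against 3889 to 4326 CPM. The part of sex, glucocorticoids and cell make-up in this spread was not tested.

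**Figure D3:**
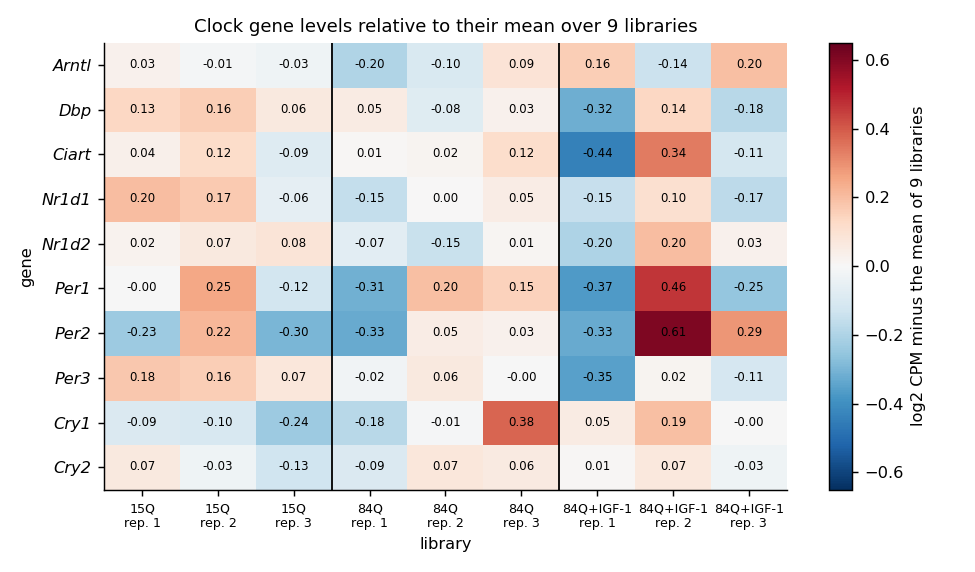
Level of each clock gene in each library as log2 CPM minus its mean over the 9 libraries, with red for above and blue for below and the groups divided by black lines. The column of 84Q+IGF-1 replicate 1 is below the mean for 7 of the 10 genes, and that of replicate 2 above it for all but Arntl.

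Across the 9 mice Arntl ran against Dbp with a Pearson r of −0.61 (exact permutation p = 0.0791, adjusted over 9 relations 0.426) and a Spearman rho of −0.50 (exact permutation p = 0.178, adjusted 0.786). With Ciart r was −0.58 (exact permutation p = 0.0948, adjusted 0.426) and rho −0.42 (exact permutation p = 0.270, adjusted 0.786). For the other 7 genes r ran from −0.48 (Per3) to 0.28 (Cry1) and rho from −0.35 (Per1) to 0.40 (Cry1), with two-sided exact permutation p-values of 0.190 to 0.880 for r and 0.291 to 0.982 for rho. With the REV-ERB genes r was −0.21 (Nr1d1, exact permutation p = 0.573) and −0.22 (Nr1d2, exact permutation p = 0.569). None of the 9 relations passed after adjustment by Benjamini and Hochberg. Without 84Q+IGF-1 replicate 3 and 84Q replicate 1, the 2 mice farthest from the median of Arntl, r was −0.57 with Dbp, −0.71 with Ciart, −0.76 with Per1 and −0.67 with Per2. With the group means taken off, r of Arntl and Dbp was −0.66. Within the 5 mice with low Xist r of Arntl was −0.50 with Dbp, −0.53 with Ciart and −0.67 with Per3, and within the 4 with high Xist it was 0.40, −0.25 and 0.93. In the same order of classes it was −0.59 and 0.54 with Nr1d1, −0.81 and 0.25 with Per1, 0.21 and 0.30 with Nr1d2, and 0.087 and 0.034 with Per2. Of the 7 genes with a negative pooled r, Ciart alone thus had a negative r in both classes, which are too small for a test.

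How much single clock genes varied between mice of the same group was set beside genes of like abundance (within 0.5 of their mean log2 CPM). The pooled SD within groups, on the log2 CPM scale with 6 degrees of freedom, was largest for Per2 (0.34) and Per1 (0.33), followed by Ciart (0.24) and Cry1 (0.18). It was 0.14 for Dbp and Arntl, 0.13 for Nr1d1 and Nr1d2, 0.12 for Per3 and 0.083 for Cry2. Among genes of like abundance Per2 and Per1 stood at the 99.8th and 99.7th percentile, and Cry2 lowest at the 52.9th. All 10 lay above the middle of their abundance class, although their median of 0.14 was close to that of all tested genes (0.15).

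Outside the 10, the wider clock list held 25 genes, and all 25 were tested. Clock and Npas2, which encode the alternative partners of the Arntl protein, and Rora, an activator of Arntl, were the genes of the list that passed an adjusted p of 0.1 in at least 1 comparison of 2 groups. Npas2 was the single gene of the list called, and only in 84Q+IGF-1 against 15Q. It had 5.32, 4.37 and 5.42 CPM in 15Q, 6.38, 6.51 and 6.56 CPM in 84Q and 7.94, 7.003 and 7.78 CPM in 84Q+IGF-1. No value of one group fell within another. Npas2 rose in 84Q+IGF-1 against 15Q by 0.59 on the log2 scale (standard error 0.12, Benjamini-Hochberg adjusted p = 0.0330 in edgeR), where 0.186% of all genes were called higher. The call was lost without 15Q replicate 2 (0.50, edgeR adjusted p = 0.136), without 84Q+IGF-1 replicate 1 (0.56, 0.104), without replicate 3 of that group (0.57, 0.0762) with the Xist class as a covariate (0.55, 0.0682) and without the 3 libraries with the most Ttr (0.80, 0.139), which leaves 1 mouse in 15Q and 2 in 84Q, and adjusted p over its alternatives ran from 0.00394 to 0.139. In 84Q against 15Q the log2 fold change was 0.36 (edgeR adjusted p = 0.146) and in 84Q+IGF-1 against 84Q 0.22 (edgeR adjusted p = 0.969), neither of which passed.

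Clock had 106, 112 and 129 CPM in 15Q, 87.6, 92.9 and 84.3 CPM in 84Q and 80.9, 96.0 and 92.9 CPM in 84Q+IGF-1. All 3 mice of 15Q lay above the 6 others. Its log2 fold change was −0.39 in 84Q against 15Q (standard error 0.082, edgeR adjusted p = 0.0373) and −0.37 in 84Q+IGF-1 against 15Q (standard error 0.082, edgeR adjusted p = 0.0480), past the adjusted p but short of the 1.5-fold threshold, so that it was not called. Without the 3 libraries with the most Ttr, which leaves 1 mouse in 15Q, the values were −0.38 and −0.31. Over the alternatives the lowest adjusted p in edgeR was 1.18e-06 and 7.59e-06, of which the former came from the fit without a filter on low counts. The p-values of that fit hardly use the gene's own spread. DESeq2 gave −0.38 and −0.35 (adjusted p = 0.00237 and 0.00611). In 84Q against 15Q the log2 fold change was −0.41 without 15Q replicate 2, −0.30 without 15Q replicate 3 and −0.36 without 84Q replicate 3 (edgeR adjusted p = 0.115, 0.163 and 0.134). For 84Q+IGF-1 and 15Q it was −0.38 without 15Q replicate 2, −0.27 without 15Q replicate 3 and −0.29 without 84Q+IGF-1 replicate 1 (edgeR adjusted p = 0.125, 0.210 and 0.154).

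Rora had 283, 291 and 346 CPM in 15Q, 248, 244 and 231 CPM in 84Q and 240.2, 276 and 253 CPM in 84Q+IGF-1. Again all 3 mice of 15Q lay above the others, by a small margin for replicate 1. The log2 fold change was −0.35 in 84Q against 15Q (standard error 0.082, edgeR adjusted p = 0.0569) and −0.26 in 84Q+IGF-1 against 15Q (standard error 0.082, edgeR adjusted p = 0.144). The former was −0.38 without 15Q replicate 2, −0.25 without 15Q replicate 3 and −0.32 without 84Q replicate 3 (edgeR adjusted p = 0.140, 0.217 and 0.189). It was −0.34 with the replicate number as a block (edgeR adjusted p = 0.123) and −0.27 without the 3 libraries with the most Ttr, which leaves 1 mouse in 15Q. The lowest adjusted p over the alternatives, 6.12e-05 in edgeR, came from the fit without a filter on low counts, which hardly uses the gene's own spread. The 15Q mice were also those with the higher sums of intestine, liver, epidermis and muscle markers. The sum of the 5 microglia markers ran from 117.1 to 132.3 CPM in 15Q, below the 141.2 to 167.3 CPM of 84Q, and from 124.0 to 137.8 CPM in 84Q+IGF-1. That of the 5 Purkinje cell markers overlapped between groups, with 5948 to 6352 CPM in 15Q, 5748 to 6355 in 84Q and 5805 to 6446 in 84Q+IGF-1. The part of all these in Clock, Npas2 and Rora was not tested.

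**Figure D4:**
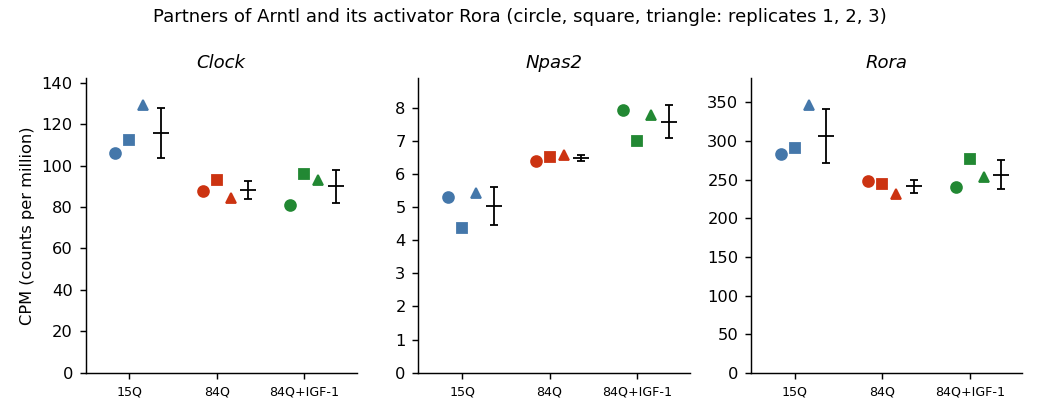
Levels of Clock, Npas2 and Rora in CPM (linear axes from 0) in the 3 mice of each group, with circles, squares and triangles for replicates 1, 2 and 3 and bars for the mean and SD. Clock and Rora lie higher and Npas2 lower in the 15Q mice than in each of the 6 mice with the 84-repeat allele.

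At an adjusted p under 0.1 with no fold threshold, 2 of the 25 genes were lower in 84Q against 15Q (Clock and Rora), where 3.25% of all genes were lower by this measure. In 84Q+IGF-1 against 15Q, Npas2 was higher and Clock lower, against 1.04% higher and 2.63% lower. In all 84Q carriers against 15Q, Npas2 and Csnk1d were higher and Clock and Rora lower, against 3.64% and 6.11%. In 84Q+IGF-1 against 84Q, 0 of 25 passed in edgeR, and 0 of 25 had an unadjusted p under 0.05. There 0.0% of all genes were called with the fold threshold added. At an unadjusted p under 0.05 in edgeR the counts in the 4 comparisons, in the order used above, were 7, 5, 0 and 8 of 25, against 19.4%, 17.7%, 4.68% and 22.6% of all genes. With both thresholds DESeq2 called 1 of the 25 in 84Q+IGF-1 against 15Q (2.46% of its genes) and 0 in the other 3 comparisons (2.18%, 0.0159% and 3.1%). Csnk1d, a kinase that phosphorylates the period proteins, had a log2 fold change of 0.17 in the carriers (edgeR adjusted p = 0.0651). The PAR bZIP genes Tef and Hlf, relatives of Dbp, differed by −0.037 and −0.16 in 84Q against 15Q (edgeR adjusted p = 0.811 and 0.183). Their repressor counterpart Nfil3 differed by 0.40 (edgeR adjusted p = 0.221), with 9.56 to 11.7 CPM in 15Q and 11.3 to 18.7 CPM in 84Q. Rorb, Bhlhe40 and Bhlhe41, further regulators of the loop, differed by −0.073, −0.12 and 0.023 (edgeR adjusted p = 0.760, 0.361 and 0.926). The median log2 fold change of the 25 was 0.018 in 84Q against 15Q and 0.031 in 84Q+IGF-1 against 15Q.

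Stimuli other than the hour of the day also move Per1, Per2 and Dbp, and 3 further lists stand for them. None of 15 glucocorticoid targets, 12 immediate early genes and 8 temperature-sensitive genes was called in any comparison by edgeR (background 2.14%, 2.25%, 0.0% and 3.51% of all genes, in the order of comparisons used above) or DESeq2 (2.18%, 2.46%, 0.0159% and 3.1%). In lists of 8 to 15 genes a count of 0 is near these shares and is no result about the lists. At an unadjusted p under 0.05 in edgeR, in 84Q against 15Q, in 84Q+IGF-1 against 15Q, in 84Q+IGF-1 against 84Q and in all 84Q carriers against 15Q, there were 1, 2, 1 and 2 glucocorticoid targets, against 19.4%, 17.7%, 4.68% and 22.6% of all genes. There were 1, 0, 0 and 0 immediate early genes and 1, 1, 0 and 1 temperature-sensitive genes against the same background. Fkbp5 differed by −0.27 in 84Q against 15Q and 0.082 in 84Q+IGF-1 against 15Q on the log2 scale (edgeR adjusted p = 0.589 and 0.893). The median log2 fold change of the glucocorticoid list was −0.027 in 84Q against 15Q and 0.19 in 84Q+IGF-1 against 15Q. Fos, induced by neuronal activity, varied far more than any clock gene, with 2.97, 18.3 and 20.5 CPM in 15Q, 3.80, 22.0 and 88.0 CPM in 84Q and 12.2, 16.4 and 4.87 CPM in 84Q+IGF-1. The immediate early list had a median log2 fold change of 0.68 in 84Q against 15Q (all genes −0.0019) and −0.63 in 84Q+IGF-1 against 84Q (all genes −0.0033). Both share the same 84Q mice, and the groups overlapped for all 12 genes in both. The lowest adjusted p of the list in edgeR was 0.243 and 0.969. The library with the highest Fos, 84Q replicate 3, also had the highest Cry1 and the highest Nfil3. In the temperature list Hspa8, a heat shock protein of the resting cell, passed an adjusted p of 0.1 below the fold threshold, at a log2 fold change of 0.28 in 84Q against 15Q and 0.31 in 84Q+IGF-1 against 15Q (edgeR adjusted p = 0.0609 and 0.0425). Cirbp, which is induced by cold, stood between 94.1 and 123 CPM in all 9 mice.

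Genes were ranked by the Pearson r of log2 CPM with Dbp over the 9 libraries, among the 14202 tested genes with a mean log2 CPM of at least 1, as a description without a test. The points share library depth, sex and tissue make-up. The 10 most alike were 1700034H15Rik (0.94), P2ry14 (0.93), Alyref (0.92), Gabra3 (0.92), Kif24 (0.90), Tmem198b (0.90), Agps (0.89), Efcab14 (0.89), Pik3c2b (0.88) and Per3 (0.88). The least alike were Rasa2 (−0.97), Zfp641 (−0.96), Ppp1r21 (−0.93), Khnyn (−0.93) and Gm12355 (−0.92). Per3 was thus the one clock gene among the first 10, followed by Ciart at rank 43 (0.83), Tef at rank 61 (0.82), Nr1d1 at rank 196 (0.74) and Nr1d2 at rank 265 (0.71). Arntl, at rank 13263, and Npas2, at rank 13961 (−0.76), stood near the other end. The ranking depended on the group means. With these taken off, 0 of the first 10 were shared, and Ciart became the clock gene nearest to Dbp, at rank 7 with r = 0.95.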

How the data were processed

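Strand-specific, paired-end RNA-seq libraries of the cerebellum were trimmed by the authors with Trimmomatic 0.36, aligned with HISAT2 2.2.0 to GRCm38.p6 (mm10) and counted per gene with featureCounts, and the base calls came from bcl2fastq 2.20. The annotation and strand setting of the counting are not given in the sources used here. The deposited values are read counts per gene, without normalization, for 37816 genes. Groups and the numbers of replicates follow the sample labels, and no column was left out. Each sample was taken as 1 mouse. Litter, batch and date are not given, so that p-values measure the spread between these samples, which may be partly technical.

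Counts were scaled by TMM and filtered by filterByExpr, and 1 quasi-likelihood model over the 9 libraries was tested with edgeR 4.0.16 under R 4.3.3. The p-values of the 19353 genes kept were adjusted by the method of Benjamini and Hochberg. The fourth comparison set 15Q against the mean of both 84Q groups (6 libraries). Standard errors were derived from the F statistic, and 95% intervals from these with the degrees of freedom of the fit. Log2 CPM used a prior count of 2. TPM used the exon length in GENCODE vM21, which 37681 genes had. Gene names and positions are those of GENCODE vM21 (GRCm38), and promoter sequences those of RefSeq. All tests are two-sided. A floor of 3 counts stood between 0.0515 and 0.172 CPM. The control libraries tended to be deeper, with a median total of 40249019 counts on genes. The sham mice had a median of 22808219 and the mice given IGF-1 one of 26914560, and the ranges overlapped. Depth was thus uneven over the groups, and its part in the values beyond counting error was not tested. Only the edgeR test and its calls were tried on simulated counts, with planted changes larger than the 1.5-fold threshold. The correlations, the ranking, the spread and the motif search were not.

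The members and all gene lists were chosen with earlier results of these data known. Genes named were the 10 members, the transcription factors Clock, Npas2, Tef, Hlf, Nfil3, Rora, Rorb, Bhlhe40 and Bhlhe41 and each called gene of the wider clock list, the 10 genes most and 5 least like Dbp, and Fkbp5, Fos, Cirbp, Xist and Ttr. Csnk1d and Hspa8 were named after their values were seen. Replicate numbers did not pair the mice. Over the 9 pairs of libraries with the same number, the correlation of deviations from the group means ran from −0.31 to 0.079. The alternatives were DESeq2 1.42.0 (Wald test), DESeq2 size factors in edgeR, no filter on low counts, no fold threshold, an adjusted p under 0.05, the replicate number as a block, the Xist class as a covariate, only the groups compared, each library left out in turn, other scales for correlations and, added after the data were seen, the 3 libraries with the most Ttr left out and the wider list under the same settings.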

Additional observations from a re-analysis of the deposited data

How the results depend on the processing

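Under the alternatives none of the 10 clock genes was called in any comparison, and 47 of the 630 fold changes recomputed, all of genes not called, changed sign. The counts of the wider list moved as follows. Without a filter on low counts 1 gene was called in 84Q against 15Q (Prokr2), 2 were in 84Q+IGF-1 against 15Q (Npas2 and Prokr2) and 1 was in all 84Q carriers against 15Q (Prokr2, named after its values were seen), and without a fold threshold the counts were 2, 2 and 4. In 84Q+IGF-1 against 15Q the count was 0 with the Xist class as a covariate and 0 without the 3 libraries with the most Ttr, and it ran from 0 to 1 when 1 library was left out. With the Xist class as a covariate the log2 fold change of Per1 was 0.038 in 84Q against 15Q, and in all 84Q carriers against 15Q those of Arntl, Per1 and Ciart were −0.056, 0.0099 and 0.038. Without the 3 libraries with the most Ttr, which leaves 1 mouse in 15Q, Per2 and Ciart were at −0.35 and −0.052 in 84Q against 15Q, Per1 and Cry1 at 0.067 and −0.031 in 84Q+IGF-1 against 84Q, and Per2 at −0.16 in all 84Q carriers against 15Q. The cause was not tested.

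Leaving out 1 library at a time gave log2 fold changes of both signs for these genes. In 84Q against 15Q they ran from −0.14 to 0.0052 for Arntl, −0.11 to 0.13 for Per1, −0.084 to 0.19 for Per2 and −0.027 to 0.077 for Ciart. In 84Q+IGF-1 against 15Q they ran from −0.14 to 0.063 for Nr1d2, −0.35 to 0.10 for Per1 and −0.29 to 0.11 for Ciart. In 84Q+IGF-1 against 84Q they ran from −0.13 to 0.016 for Nr1d1, −0.017 to 0.18 for Nr1d2, −0.34 to 0.12 for Per1, −0.11 to 0.18 for Cry1, −0.049 to 0.035 for Cry2, −0.31 to 0.082 for Ciart and −0.024 to 0.097 for Clock. In all 84Q carriers against 15Q they ran from −0.026 to 0.067 for Arntl, −0.19 to 0.078 for Per1 and −0.13 to 0.066 for Ciart. The Pearson r of Arntl ran from −0.57 to 0.045 with Nr1d1, −0.41 to 0.086 with Nr1d2, −0.34 to 0.32 with Per2 and −0.20 to 0.29 with Cry2, and with Cry2 it was −0.088 without the 2 libraries farthest from the median of Arntl.

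The replicate numbers are shared only as labels. None of the 9 same-numbered pairs had a correlation of deviations above 0.1, and 0 of 9 libraries correlated best with its own number. With the replicate number as a block, 0 of 10 clock genes were called in each comparison, and the log2 fold change of Per3 in 84Q+IGF-1 against 15Q was −0.28 (edgeR adjusted p = 0.140). The block changed no count of calls.

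Without a filter on low counts Per2 had an edgeR adjusted p of 1.2e-04 in 84Q+IGF-1 against 15Q at a log2 fold change of 0.33, under the fold threshold, where the alternatives ran up to 0.986. That fit had 226896 degrees of freedom, against 11.7 in the filtered one, so that its p-values hardly use the gene's own spread. It also gave the lowest adjusted p of Clock, Rora and Cry1 in 84Q against 15Q and of Per3 in 84Q+IGF-1 against 15Q. The hour of harvest, the light cycle and the order of dissection were not given in the sources used here. With 3 mice a group, the standard errors of Per1 and Per2 were the widest of the 10, at 0.20 on the log2 scale in comparisons of 2 groups.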
